A study of Homo sapiens with 5 samples.

Results

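C3, CFB, SAA1, SAA2, LCN2, SLPI, PI3 and S100P are 8 genes of acute-phase, complement, antiprotease and epithelial defence proteins, most of them secreted. They were taken by symbol from the 26475 rows of the deposited tables, having been chosen from earlier results of these data for how their counts changed with time in culture. All 8 had at least 1 count per 1000000 of the unscaled library total in at least 1 of 5 libraries, the filter that 13940 genes passed. Levels below are in CPM, the same measure after scaling the totals by TMM factors. PI3, S100P and LCN2 passed it only through libraries of day 10 or later, so a higher level at later times was a condition of their passing.

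The cells were MDA-MB-231, an established human triple-negative breast cancer line that resembles mesenchymal cells, and RNA sequencing was done with 1 library per condition. Control cells were kept at 20% O2 for 1 day or for 10 days, and hypoxic cells at 1% O2 for 1 day (acute) or 10 days (chronic). Reoxygenated cells were first held for 10 days at 1% O2 and then moved to 20% O2 for a further 10 days, which made 20 days in culture. A library of cells held at 20% O2 for 20 days was not analysed here, so return to oxygen and longer culture cannot be told apart in the reoxygenated cells. Labels give no further treatment or genotype for any group, and everything comes from 1 line.

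Acute-phase proteins are plasma and mucosal proteins whose production goes up in infection and injury, in the liver and also in epithelia, typically under interleukin-1, interleukin-6 and the transcription factors NF-kB, C/EBP and STAT3. Complement is a cascade of plasma proteases that converges on C3, and epithelial antiproteases such as SLPI and PI3 protect tissue from the enzymes of neutrophils. Cells facing low oxygen respond through the HIF transcription factors, which bind a core sequence of their own.

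Totals ran from 7719797 counts in the reoxygenated library to 12544953 at 20% O2 day 10, so that 1 count was worth 0.0816 to 0.126 CPM and 3 counts, the limit that an absence of counts allows, 0.245 to 0.377 CPM. The line's mesenchymal markers were present, with VIM at 8945 to 23189 and AXL at 6065 to 11021 counts. Of 9 luminal and receptor markers, ESR1 had at most 2, PGR at most 4 and CDH1 at most 13 counts. The others were present: KRT8 at 2644 to 5669, KRT18 at 2941 to 5422 and KRT19 at 781 to 1508 counts. ERBB2 had 421 to 597, EPCAM 121 to 303 and GATA3 64 to 119 counts. Hepatocyte markers were at or near 0: at least 4 of the 6 were at 0 in each library, ALB had at most 1 count, and their summed level was 0 to 0.278 CPM. Of 6 leukocyte markers, MPO and CSF3R were at 0 throughout and the summed level was 1.30 to 6.71 CPM, but PTPRC had 1 and 3 counts at day 1 against 14 and 28 at day 10. The 4 fibroblast markers summed to 9.53 to 32.5 CPM, with DCN at 0 or 1 count and the highest sum at 1% O2 day 10. These levels moved partly with the 8 genes, and their part in the results was not tested.

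All promoter sequence below is from RefSeq on GRCh38.p14, 5′ to 3′ on the plus strand, and covers the 200 bases before the transcription start; windows for 3 of the 8 genes were matched. They are shown because all 3 genes were higher at day 10, and capitals mark matches to the motifs searched: GGGANNTTC (NF-kB type), TTNNGNAA (C/EBP type) and TTCNNNGAA (STAT type), on both strands, with overlaps kept.

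LCN2, chr9:128149253-128149452: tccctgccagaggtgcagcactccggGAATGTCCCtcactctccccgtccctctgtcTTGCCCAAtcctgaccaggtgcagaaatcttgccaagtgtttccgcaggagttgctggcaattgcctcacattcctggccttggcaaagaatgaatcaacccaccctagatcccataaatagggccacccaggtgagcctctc

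S100P, chr4:6693678-6693877: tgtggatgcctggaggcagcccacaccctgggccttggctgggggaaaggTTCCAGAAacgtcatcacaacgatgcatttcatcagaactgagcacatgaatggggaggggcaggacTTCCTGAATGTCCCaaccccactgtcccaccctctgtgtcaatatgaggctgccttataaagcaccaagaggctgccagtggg

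CFB, chr6:31945895-31946094: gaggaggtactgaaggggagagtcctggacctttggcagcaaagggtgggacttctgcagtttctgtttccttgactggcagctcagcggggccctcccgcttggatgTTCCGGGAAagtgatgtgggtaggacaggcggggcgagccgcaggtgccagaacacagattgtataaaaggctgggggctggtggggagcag

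The LCN2 window held an NF-kB type match 174 bases before the start and a C/EBP type match 143 bases before it. S100P carried the same 9 NF-kB type letters 78 bases before its start, overlapping a C/EBP type match at 83, with another C/EBP type match at 150. CFB had a single STAT type match, 92 bases before the start. Among 35116 windows of 300 bases, 4.18% held the NF-kB type letters, 36.8% the C/EBP type and 7.66% the STAT type. The HIF core ACGTG, present in 21.4% of windows, was in none of these 3. A match is a description of letters and says nothing of binding.

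The time comparison asks how transcript levels differed between day 10 and day 1 within each oxygen level, and the oxygen comparison how 1% O2 differed from 20% O2 on the same day. All 8 genes were higher at day 10 at both oxygen levels, by log2 1.57 to 4.52 at 20% O2 and 2.19 to 4.81 at 1% O2. By these point values, differences between oxygen levels were smaller for every one of them. With the prior count of 2 that these log2 values carry, the oxygen differences were at most 1.40 in size. Both time differences exceeded both oxygen differences in 12.4% of all genes. The 8 were chosen for how they changed with time, so nothing is read from that share. The unshrunk count ratio of S100P at day 1, from 9 and 3 counts, was log2 −1.64 (−4.16 to 0.36). For PI3 and LCN2 the day 1 oxygen interval was −3.32 to 6.83 each. These intervals reach the size of the time differences of the same genes. For S100P, PI3 and LCN2, counting error thus does not settle whether the day 1 oxygen difference was the smaller. With 1 library per condition no difference has a test; the intervals given are exact 95% intervals of the count ratio (Clopper-Pearson) or of a single level (Poisson) and cover counting error only.

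C3, the central complement component that is cleaved to coat targets, is on chromosome 19 (6677704 to 6720650). Its level was 17.6 CPM at 20% O2 day 1, 24.2 at 1% O2 day 1, 239 at 20% O2 day 10, 425 at 1% O2 day 10 and 420 in reoxygenated cells. Both day 10 libraries and the reoxygenated one stood far above both day 1 libraries, with no overlap of intervals. C3 was 13.6-fold higher at 20% O2 (log2 3.75, interval 3.54 to 3.98) and 17.6-fold at 1% O2 (log2 4.12, interval 3.95 to 4.32). At 1% O2 it was higher than at 20% O2 on each day, by log2 0.45 (0.18 to 0.74) at day 1 and 0.83 (0.76 to 0.90) at day 10. C3 was the one gene of the 8 whose day 1 oxygen interval lay above 0.

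CFB, on chromosome 6 (31946095 to 31952084), encodes factor B, the protease of the alternative-pathway C3 convertase. In the order 20% O2 day 1, 1% O2 day 1, 20% O2 day 10, 1% O2 day 10 and reoxygenated, kept from here on, it stood at 5.78, 6.30, 18.4, 33.5 and 20.7 CPM. The day 1 libraries were alike and low, and 1% O2 day 10 was the highest. It was higher with time by log2 1.64 (1.26 to 2.11) at 20% O2 and 2.38 (2.03 to 2.81) at 1% O2, while oxygen differed by 0.12 (−0.40 to 0.65) at day 1 and 0.86 (0.62 to 1.11) at day 10. Of the 50-base words of CFB transcripts, 68.2% also occur in the overlapping gene model AL645922.1, so reads could be shared out between them. Adding the row of the neighbouring C2, the classical-pathway homologue with at most 6 counts, gave time differences of 1.63 and 2.40. So small a row could hardly move them, and no row of AL645922.1 was added.

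SAA1 and SAA2, paralogs side by side on chromosome 11 (18266264 to 18269967 and 18238236 to 18248668), encode the serum amyloid A apolipoproteins. SAA1 stood at 10.2, 11.2, 30.6, 51.8 and 32.9 CPM. For SAA2 the values were 2.50, 2.96, 12.4, 19.2 and 13.8 CPM. Both had day 1 libraries at the same level, a step up at day 10 and a further one at 1% O2. The time difference of SAA1 was log2 1.57 (1.27 to 1.91) at 20% O2 and 2.19 (1.92 to 2.51) at 1% O2. That of SAA2 was 2.22 (1.70 to 2.97) and 2.62 (2.15 to 3.28). Oxygen differed at day 10 by 0.76 (0.57 to 0.95) for SAA1 and 0.62 (0.32 to 0.94) for SAA2, and at day 1 both intervals spanned 0. These genes share 46.6% of SAA1's and 20.5% of SAA2's 50-base words with other genes, mainly each other, so each one's own value is uncertain; their summed rows gave 1.74 and 2.31 for time.

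LCN2, on chromosome 9 (128149453 to 128153453), encodes lipocalin 2, which binds the siderophores bacteria use to take up iron. It had 1, 2, 47, 109 and 75 counts, or 0.0963, 0.185, 3.83, 10.4 and 9.43 CPM. It was at the limit of counting on day 1 and had 47 or more counts in each later library. The count ratio for time was 39.8-fold at 20% O2 (interval 6.80 to 1605) and 56.4-fold at 1% O2 (15.2 to 471), wide because so few reads lie below it. At day 10, 1% O2 was higher by log2 1.40 (0.94 to 1.97), the largest of the 8 on that day, while the day 1 interval ran from −3.32 to 6.83.

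SLPI and PI3, the secretory leukocyte protease inhibitor and elafin, both of which inhibit neutrophil elastase, lie in 1 cluster on chromosome 20 (45252239 to 45254564 and 45174902 to 45176544). SLPI stood at 0.578, 1.30, 11.1, 24.5 and 11.6 CPM. It was near the limit at day 1, high at day 10 and highest at 1% O2, with a time difference of log2 3.87 (3.10 to 5.73) at 20% O2 and 4.05 (3.47 to 5.13) at 1% O2. PI3 had 1, 2, 79, 55 and 16 counts (0.0963, 0.185, 6.44, 5.27 and 2.01 CPM), so that, unlike SLPI, it was not highest under hypoxia. The PI3 count ratio for time was 66.9-fold (11.7 to 2676) at 20% O2 and 28.4-fold (7.51 to 241) at 1% O2. At day 10, 1% O2 differed by log2 1.13 (0.84 to 1.46) for SLPI and −0.28 (−0.81 to 0.22) for PI3, whose interval spans 0.

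S100P, on chromosome 4 (6693878 to 6697170), encodes a calcium-binding S100 protein that can act outside the cell on the receptor AGER. Its level was 0.867, 0.278, 5.30, 2.20 and 2.64 CPM, from 9, 3, 65, 23 and 21 counts. Each 1% O2 library was lower than the 20% O2 library of the same day, and the interval of 1% O2 day 10 (1.40 to 3.31 CPM) overlapped that of 20% O2 day 1 (0.396 to 1.65 CPM). Time differed by log2 2.37 (1.60 to 3.80) at 20% O2 and by a count ratio of 7.93 (2.40 to 41.2) at 1% O2. Oxygen differed by a count ratio of 0.321 (0.0558 to 1.29) at day 1 and by log2 −1.20 (−2.02 to −0.56) at day 10. S100P was thus the single member below 0 for oxygen at day 10 by its interval.

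**Figure D1:**
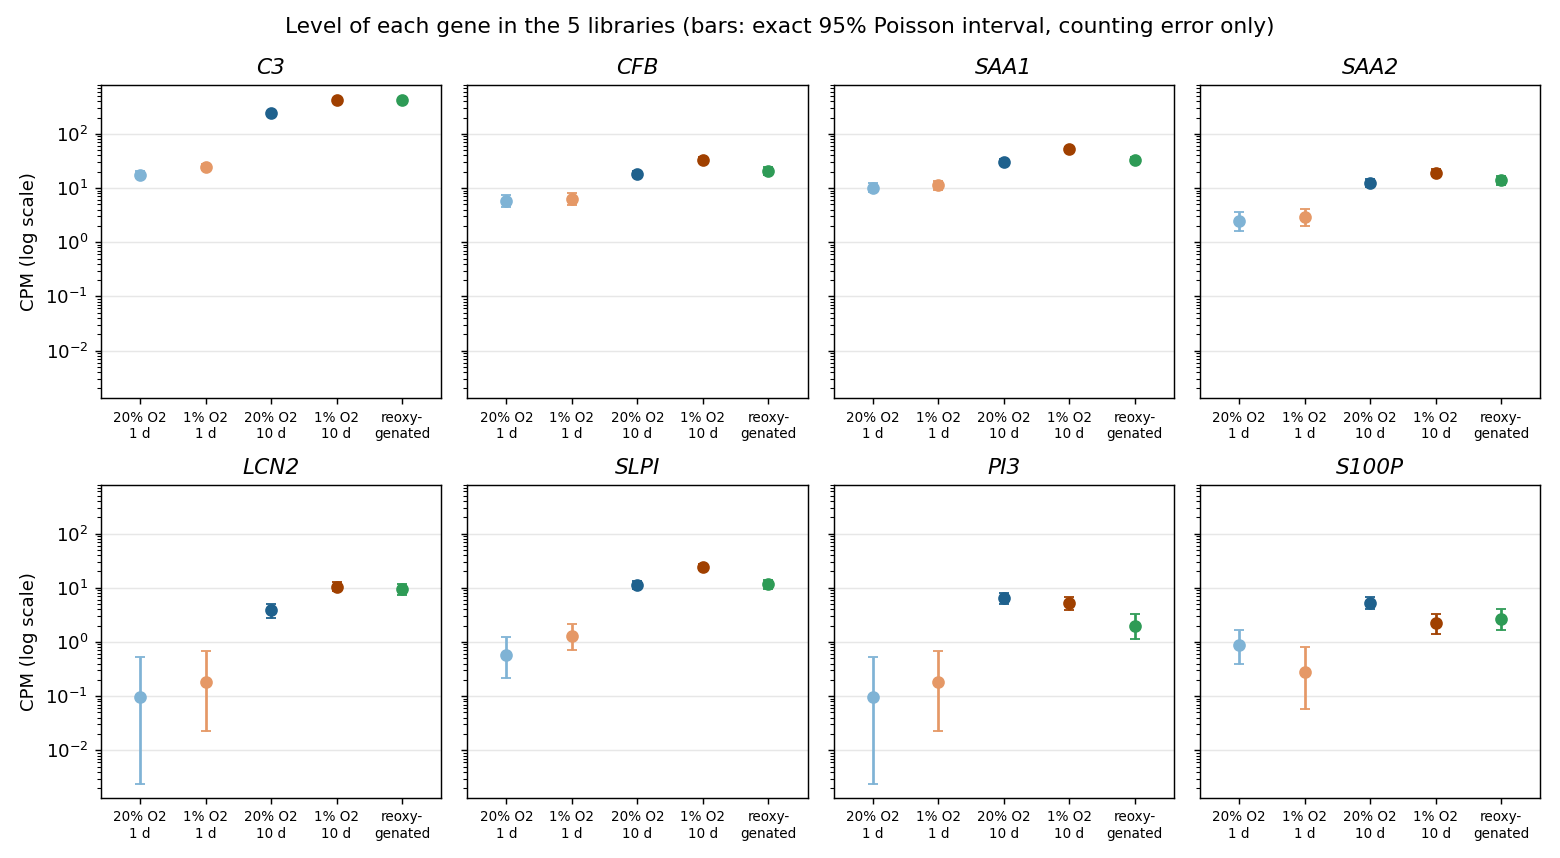
Level of each of the 8 genes in CPM (log axis) in the 5 libraries, with bars for the exact 95% Poisson interval, counting error only. Both day 1 libraries are the lowest for every gene, and C3 reaches 425 CPM at 1% O2 day 10.

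By the 2-fold rule (log2 of at least 1 between 2 libraries), all 8 genes were higher with time at 20% O2, against 3.06% of genes tested, and all 8 at 1% O2, against 14.2%. They were chosen with these differences known, so nothing is read from the counts. At 20% O2, between 4 (for PI3) and 139 (for SAA1) of 13940 genes had a larger upward difference. At 1% O2 the range was 9 (LCN2) to 474 (SAA1).

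For oxygen at day 1, no gene of the 8 was 2-fold higher (background 2.12%), although SLPI, at 0.95, passed with a prior count of 0.5 (1.10), and S100P alone was 2-fold lower (background 0.839%). At day 10, LCN2 and SLPI were 2-fold higher (background 14.4%) and S100P 2-fold lower (background 7.06%). By their intervals, 6 of 8 were above 0 at day 10, S100P was below and PI3 spanned 0. The median over the 8 was log2 0.79 at day 10, against 0.02 over all genes. How far the difference between oxygen levels grew from day 1 to day 10 was log2 1.01 for LCN2 (12.5% of genes grew by 1 or more) and −0.67 for PI3, both resting on 1 and 2 counts at day 1. With a prior count of 0.5 these became 0.74 for LCN2 and −0.98 for PI3, so which of them is the larger depends on the prior. The other 6 ran from −0.03 (S100P) to 0.74 (CFB).

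**Figure D2:**
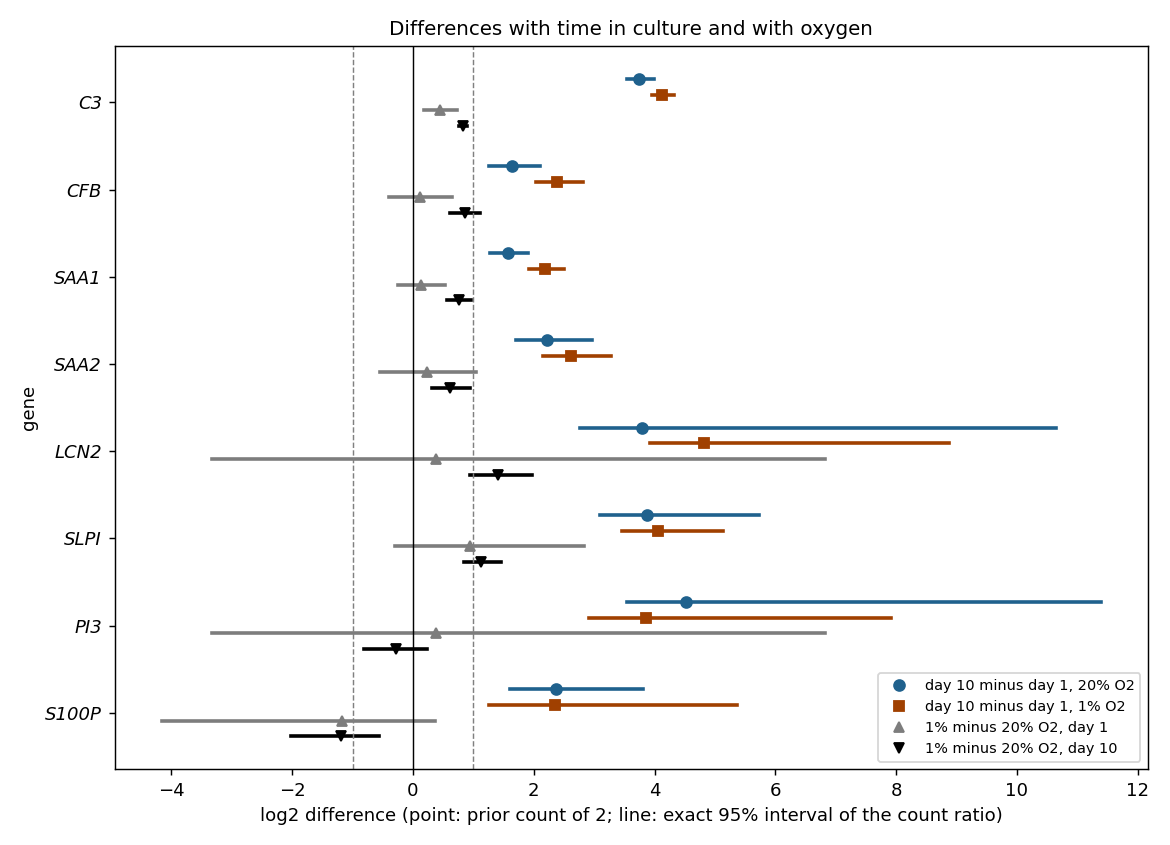
Log2 difference of each gene with time at 20% O2 and at 1% O2, and with oxygen at day 1 and day 10, with the exact 95% interval of the count ratio as a line. Time differences lie at 1.57 or higher, oxygen differences between −1.20 and 1.40 (points carry a prior count of 2).

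**Figure D3:**
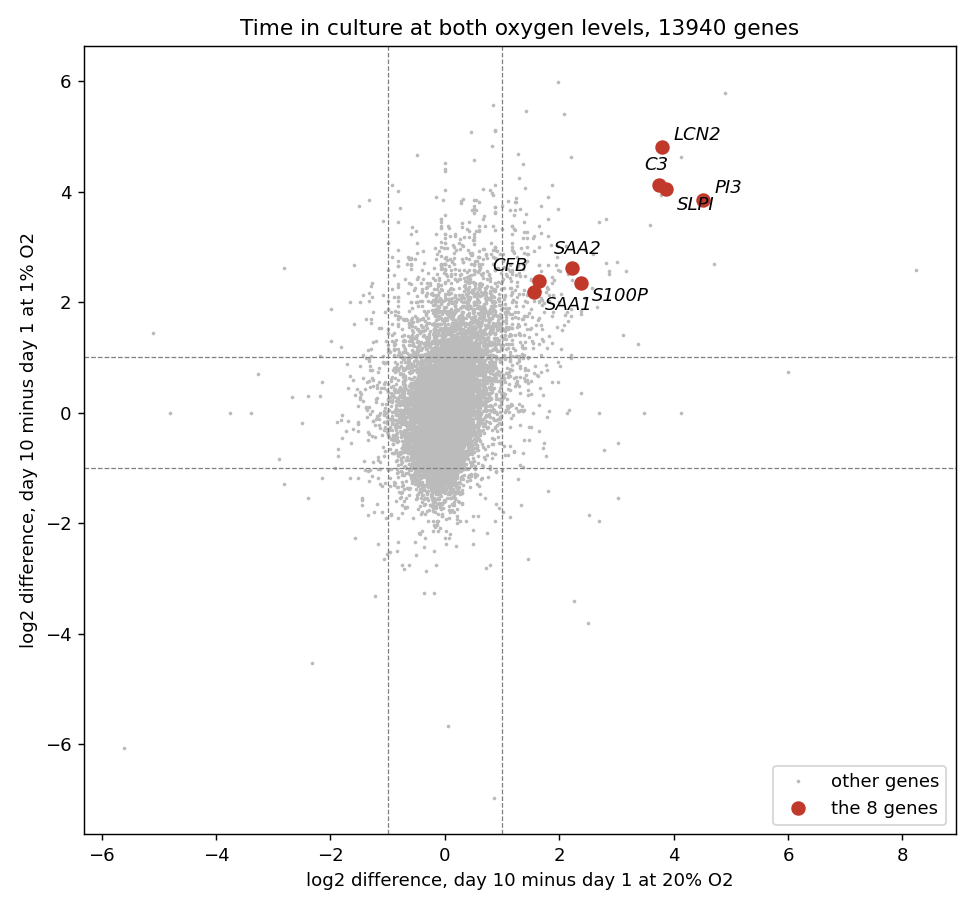
Log2 difference from day 1 to day 10 at 20% O2 (horizontal) and at 1% O2 (vertical) for 13940 genes, with the 8 genes in red and dashed lines at the 2-fold rule. All 8 lie in the upper right, which 2.1% of genes reached.

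The comparison of reoxygenated cells asks whether levels stayed where chronic hypoxia had them. The genes fell into different patterns by their intervals. C3 and LCN2 stood at the 1% O2 day 10 level, at log2 −0.02 (−0.08 to 0.05) and −0.14 (−0.59 to 0.29), and above 20% O2 day 10 by 0.81 (0.74 to 0.89) and 1.26 (0.75 to 1.86). CFB, SAA1, SAA2 and SLPI lay below 1% O2 day 10 by intervals that exclude 0, SLPI at −1.07 (−1.44 to −0.73), CFB at −0.69 (−0.97 to −0.42), SAA1 at −0.65 (−0.87 to −0.44) and SAA2 at −0.46 (−0.82 to −0.13). Against 20% O2 day 10 these 4 differed by 0.06 to 0.17, with intervals that span 0.

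PI3 was below both, at −1.31 (−2.29 to −0.56) against 1% O2 and −1.59 (−2.55 to −0.89) against 20% O2. S100P was near 1% O2 (0.24, −0.66 to 1.18) and below 20% O2 (−0.96, −1.79 to −0.28). Past the 2-fold rule, SLPI and PI3 were lower than at 1% O2 (background 11.1%), LCN2 was higher than at 20% O2 (background 3.4%) and PI3 lower (background 1.41%). Levels in reoxygenated cells were above both day 1 libraries for all 8. Of known HIF targets, CA9, the hypoxia-induced carbonic anhydrase, had 53, 560, 104, 717 and 29 counts, and VEGFA, an angiogenic factor, 937, 1779, 959, 4634 and 1302; 10 of 12 HIF targets were 2-fold lower than at 1% O2 day 10.

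**Figure D4:**
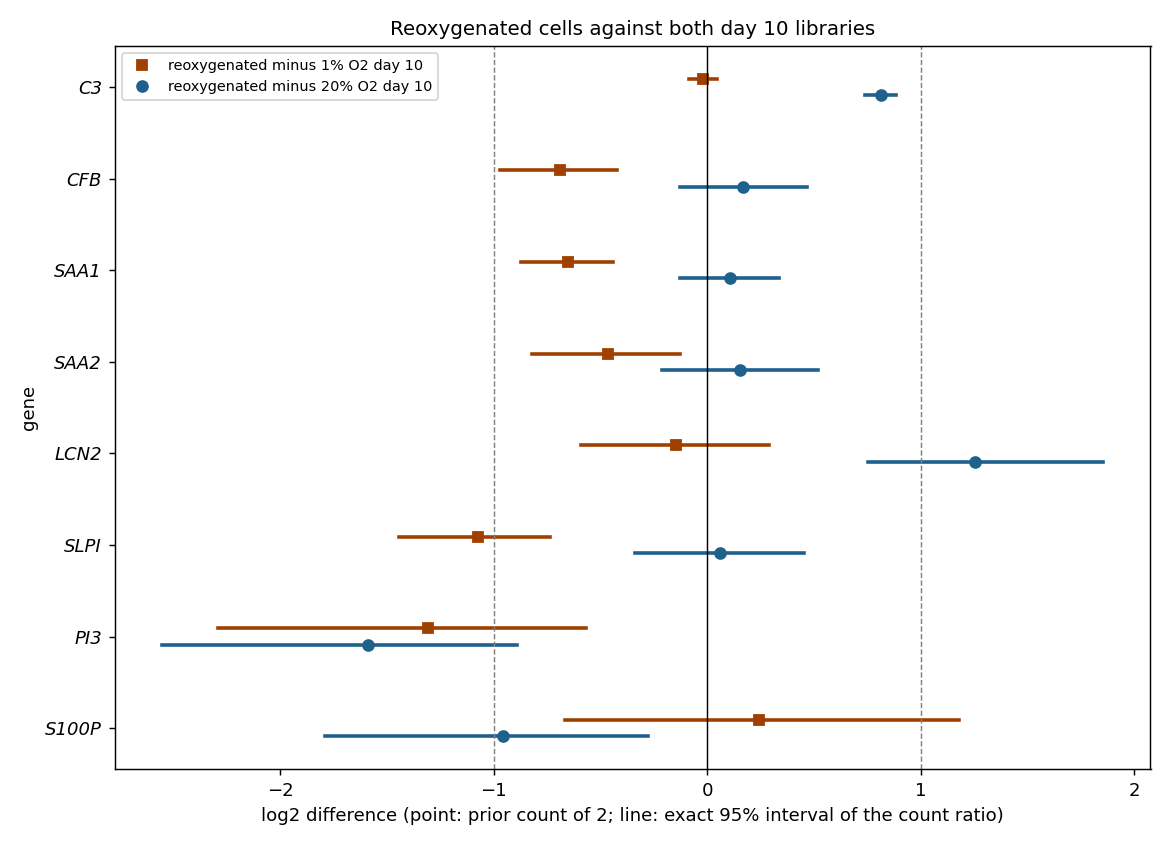
Log2 difference of the reoxygenated library against 1% O2 day 10 (squares) and 20% O2 day 10 (circles), with the exact 95% interval of the count ratio as a line and dashed lines at the 2-fold rule. C3 and LCN2 sit near 0 against 1% O2, CFB, SAA1, SAA2 and SLPI near 0 against 20% O2, and PI3 below 0 against both.

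Per kilobase of the longest coding transcript (GENCODE v29 basic), where levels can be compared between genes, SAA1 was the highest at 20% O2 day 1 (15.1 CPM per kb) and C3 was at 3.35. At 20% O2 day 10 C3 (45.4) and SAA1 (45.3) were level, and at 1% O2 day 10 they were at 80.7 and 76.8. SLPI followed at 41.1 in that library, and S100P was lowest at 1.72.

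Profiles over the 5 libraries, centred on each gene's mean, were nearest between CFB and SAA1, with a root mean square difference of log2 0.07. CFB and SAA2 differed by 0.24, C3 and LCN2 by 0.28 and SAA1 and SAA2 by 0.29. Among 11687 other genes, those nearest to CFB were EPAS1, which encodes HIF-2 alpha (0.12), BDKRB2, a bradykinin receptor (0.15), and AKR1C1 (0.16). For SAA1 they were AKR1C1, ASS1 and EPAS1, all at 0.14. SAA2 lay nearest to MMP2, the gelatinase (0.15), BDKRB2 (0.19) and MMP15 (0.31). C3, SLPI and LCN2 each had CSGALNACT1 and WSCD1 among their 3 nearest genes, at 0.52 to 0.99. PI3 lay nearest to TCN1 (0.74), PSG4 (0.83) and MMP2 (0.88), and S100P to APOE (0.43), GCOM1 (0.54) and DIO2 (0.58). Likeness over 5 libraries is a description only.

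Of 29 distinct genes within 100000 bases of the 8 that passed the filter, 1 was 2-fold higher with time at 20% O2 (background 3.06%). At 1% O2, 4 were (background 14.2%). The median of the 29 was log2 0.00 at 20% O2 and 0.07 at 1% O2. Of those higher at 1% O2, CD70 (0, 0, 0, 11 and 2 counts) and MRGPRX3 (0, 0, 3, 14 and 1) passed the filter only through 1% O2 day 10, so they had to differ. TNFSF14 had 2, 1, 0, 5 and 8 counts. MRGPRX3 was also the gene higher at 20% O2. Nothing is read from these counts.

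Lists of related genes without the 8 were also described with an additive fit of oxygen and day over the 4 libraries without reoxygenation (edgeR's quasi-likelihood test, adjusted p under 0.05, 13011 genes), which called 198 genes higher with day (1.52%) and 18 lower (0.138%). In the complement list, 13 of 35 genes passed the filter. With time, 5 were 2-fold higher at 20% O2 (background 3.06%) and 9 at 1% O2 (background 14.2%), none lower. The medians were log2 0.61 and 1.54 (all genes 0.00 and −0.01). C1R and C1S, the proteases of the classical pathway, rose with day by log2 1.99 (SE 0.38, edgeR adjusted p 0.0034) and 2.30 (SE 0.52, edgeR adjusted p 0.016). C1RL rose too, by 1.94. C1R had 71, 63, 187, 403 and 118 counts, and C1S 22, 14, 69, 121 and 60, so the day 10 library at 1% O2 was the highest for both. C5 was at 18 and 29 counts on day 1 and 58 and 68 on day 10.

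Liver-type acute-phase genes were mostly at a few counts or none: 5 of 24 passed, and CRP, FGA, HAMP, ORM2, RBP4 and TTR were at 0 in every library. SERPINA1, which inhibits neutrophil elastase, rose by log2 1.80 (SE 0.48, edgeR adjusted p 0.046), a call that none of the 5 other fits over the 4 libraries made, from 22 and 23 counts on day 1 to 86 and 78. CP (ceruloplasmin) and AGT (angiotensinogen) also rose, CP from 0 and 5 to 15 and 37 counts and AGT from 0 and 3 to 19 and 27. Both were under 1 CPM in each day 1 library and entered the fit only through day 10. A higher level at day 10 was thus a condition of their being tested. PTX3, a long pentraxin, fell by 1.35 on the log2 scale (SE 0.28, edgeR adjusted p 0.0067), from 872 and 1017 to 537 and 272 counts.

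Of 32 other protease inhibitors, 21 passed. With time at 20% O2, 5 were 2-fold higher (background 3.06%). At 1% O2, 12 were higher (background 14.2%) and 1 lower (background 6.56%). Of those 12, 6 had passed the filter only through 1% O2 day 10, the library in which they were high, so they had to differ. The same held for 1 gene each among those higher at 1% O2 in the complement, acute-phase and receptor lists (CR2, A2M and PRTN3). CST1, SPINT1 and WFDC2 rose with day among 15 tested. SPINT1 had 41, 33, 79, 400 and 42 counts, at log2 0.68 with time at 20% O2 and 3.57 at 1% O2. WFDC2 (3, 2, 15, 28 and 17 counts) was called by none of the 5 other fits over the 4 libraries. CST1, a salivary cystatin with close paralogs that could trade reads, had 16, 29, 126, 217 and 8 counts (log2 2.89, SE 0.44, edgeR adjusted p 2.8e-04), so the reoxygenated library was the lowest. In the epithelial secretory list, 3 of 18 genes passed. MUC1, a mucin (12, 26, 50, 143 and 23 counts), and TCN1, a vitamin B12 carrier (0, 4, 26, 60 and 8), rose with day. PLAUR, the other gene that passed, had 660, 917, 908, 519 and 573 counts. With time it was at log2 0.22 (0.07 to 0.37) at 20% O2 and −0.77 (−0.93 to −0.62) at 1% O2. TCN1 and WFDC2 were under 1 CPM in each day 1 library and entered the fit only through day 10. For these genes too, a higher level at day 10 was a condition of being tested.

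The S100 family (8 of 18 passed) gave no genes past the 2-fold rule at 20% O2 and 1, S100A4, higher at 1% O2 (background 14.2%). Its medians were log2 −0.05 and 0.05, and for day edgeR called 0 of 8 genes (1 had an unadjusted p under 0.05) and DESeq2 called 0. Receptors and partners of the 8 genes gave 2 higher genes of 13 at 20% O2 (background 3.06%) and 4 at 1% O2 (background 14.2%). For day, edgeR called 0 of 11 (2 had an unadjusted p under 0.05) and DESeq2 called 0. LRP2 (megalin), a receptor for LCN2, rose with 1% O2 in the same fit, at 12, 30, 14, 177 and 10 counts. That call was also made with library sizes over all rows but not with DESeq2, library totals, the 5 CPM filter or oxygen as the only term.

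Among 27 NF-kB, C/EBP and STAT3 inputs, 1 was 2-fold higher with time at 20% O2 (background 3.06%). At 1% O2, 8 were higher (background 14.2%) and 1 lower (background 6.56%). The medians were log2 0.28 and 0.27. At 1% O2, 20 of the 27 were above 0, against 6845 of 13940 genes. The lower gene was NFKB1, at log2 −0.15 with time at 20% O2 and −1.09 at 1% O2. NFKBIZ and TNFAIP3 were at −0.72 each and SOCS3 at −0.49 at 1% O2. The day term called 1 of the 27 as risen (background 1.52%). That gene was IL6, the cytokine that drives hepatic acute-phase genes. IL6 rose with day by log2 1.77 (SE 0.29, edgeR adjusted p 6.5e-04). It had 326, 461, 901, 2082 and 1098 counts, so that the day 10 and reoxygenated libraries were all above day 1. Of the HIF targets, 0 of 12 were 2-fold higher with time at 20% O2 and 5 at 1% O2. With 1% O2, 9 were higher at day 1 (background 2.12%) and 10 at day 10 (background 14.4%). The oxygen term called 9 of the 12 HIF targets as risen, where 0.899% of all genes tested rose. ANGPTL4 was the HIF target that the day term called as well, at log2 0.47 with time at 20% O2 and 2.85 at 1% O2. It had 41, 194, 68, 1361 and 81 counts. Library sizes over all rows kept this day call. It was lost with DESeq2, library totals, the 5 CPM filter and day as the only term.

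The fit has 1 residual degree of freedom and called 216 genes for day. With 3 libraries both terms leave no residual degree of freedom, so leaving out a library was only possible in another model, with day as its only term. In edgeR that model called 0 genes over all 4 libraries (698 at an unadjusted p under 0.05), 7 without 1% O2 day 1, 17 without 20% O2 day 1, 125 without 1% O2 day 10 and 5753 without 20% O2 day 10. Of the 14 related genes called for day, 5 were also called by DESeq2 (C1R, CST1, IL6, PTX3 and TCN1) and 12 with library sizes over all rows (all but SERPINA1 and WFDC2). IL6 and CST1 stayed called under each alternative scaling, filter and tool but not with day as the only term.

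**Figure D5:**
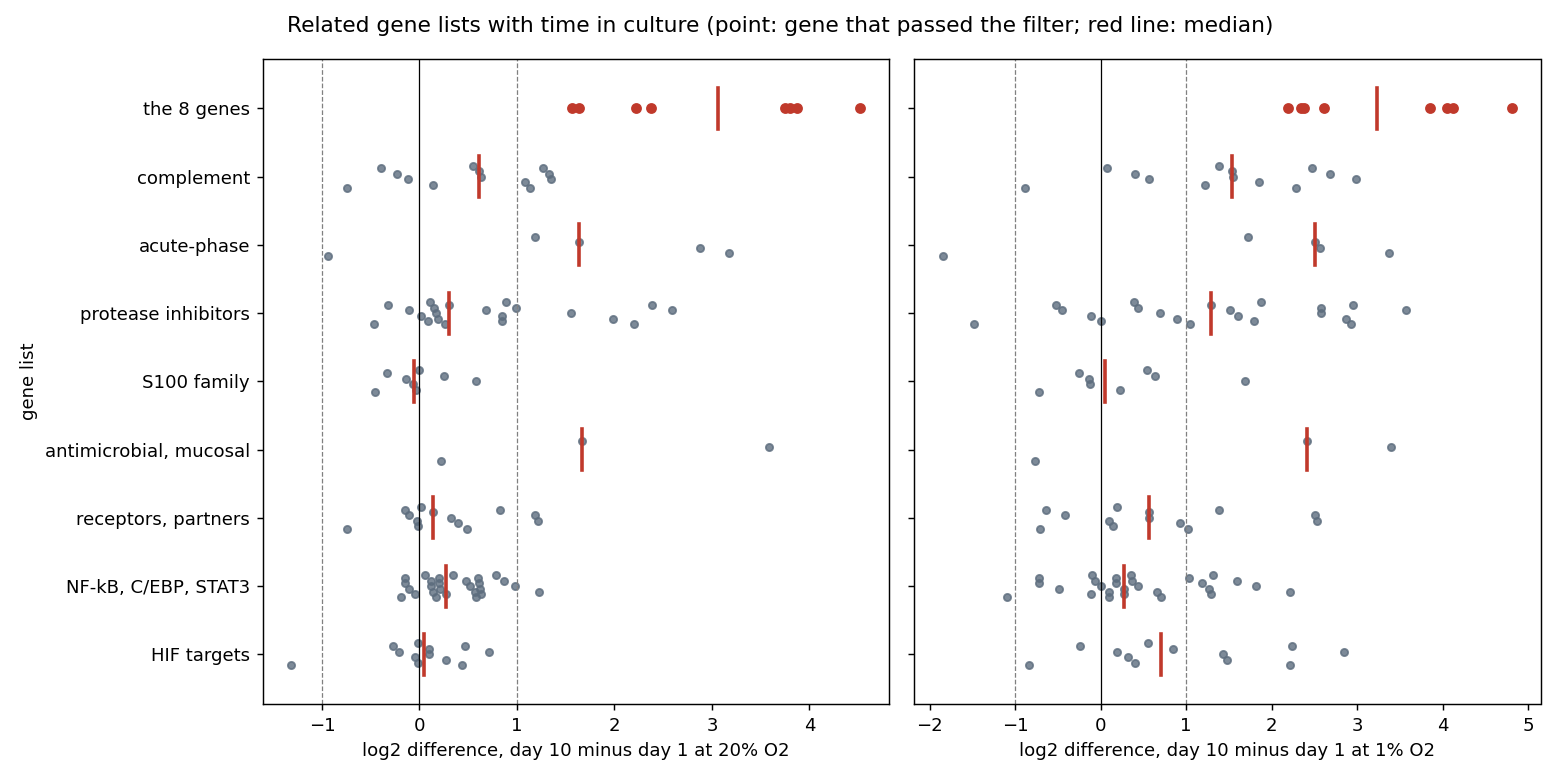
Log2 difference from day 1 to day 10 at 20% O2 (left) and 1% O2 (right) for the 8 genes and for related genes that passed the filter, with red lines at the medians and dashed lines at the 2-fold rule. The 8 genes all lie beyond 1, while the S100 family and HIF targets centre near 0 at 20% O2.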

How the data were processed

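RNA from 5 MDA-MB-231 libraries was sequenced, 1 per condition, after column purification and with an mRNA kit per the labels' protocols; how strand was treated and which gene models were used is not given in the sources used here. The tools named in the submitters' processing notes are Bowtie2 2.1.0, RSEM 1.2.15 and edgeR, and the build is hg38. The authors deposited expected counts, which are estimated reads per gene symbol without normalization, and a table of normalized values whose signal matches TMM-scaled CPM, judging by the file's values; this signal was deposited from the same reads and served as an alternative with log2(value + 1). The 28 rows whose symbols a spreadsheet turned into dates were kept under those names.

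Expected counts were rounded. The filter of 1 CPM in any library, on totals without TMM factors, left 13940 genes. CPM used TMM factors of 0.965, 0.965, 0.977, 1.067 and 1.03 and log2 differences a prior count of 2 (edgeR 4.0.16, R 4.3.3); this prior understates low genes, and for 1 to 3 counts the count ratio is given. The additive fit kept the 13011 genes that reached 1 CPM in 2 of 4 libraries, took library sizes over those genes and used Benjamini-Hochberg adjustment at 0.05; DESeq2 1.42.0 was an alternative. The additive fit was tried on simulated data with a dispersion of 0.02, against 0.048 fitted here. Those data held no oxygen effect and no oxygen-by-time difference, so they do not show how the fit behaves on these libraries. The fit was run on all genes, the 8 members included. Its p-values are not given for the members, since they were chosen for how they changed with time. Labels do not say whether libraries were independent cultures. The spread behind each p-value of the additive fit is how far its 4 libraries depart from additive effects of oxygen and day. It mixes any oxygen-by-time difference with noise, which may be technical. With 1 library per condition it does not measure a spread between replicates. Reads carried no molecular identifiers, so intervals and limits cover counting error only.

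The members and lists were chosen with earlier results of these data known. Named genes were the 8 members, up to 4 per list by size of the time difference at 20% O2 (at least 5 CPM, interval excluding 0), CA9, VEGFA and the 3 nearest profiles; other list genes named for a call, a zero or a marker role were chosen after their values were seen. Coordinates and promoters are from RefSeq GRCh38.p14. Alternatives were other scalings, prior counts, filters, size rules, summed SAA and CFB rows, and other fits.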

Additional observations from a re-analysis of the deposited data

Results flagged for a closer look

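Among the genes named by the rule, ADM and VEGFA, both HIF targets, differed with time in opposite directions at the 2 oxygen levels, with intervals that exclude 0 and at least 1 difference of log2 1 or more. ADM, the vasodilator adrenomedullin, was at log2 −1.32 from day 1 to day 10 at 20% O2 and at 0.85 at 1% O2. VEGFA was at −0.21 at 20% O2 and 1.43 at 1% O2. PDK1, another HIF target, also differed in sign but by less, at 0.44 at 20% O2 and −0.25 at 1% O2. The difference between oxygen levels was not tested, with 1 library per condition. None of the 8 genes showed such a change of direction. They were chosen for how they changed with time, so nothing is read from that.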

How the results depend on the processing

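No paired analysis was possible because each condition had 1 library and no replicate numbers were shared. All 8 genes stayed above 0 in both time differences under each alternative run, from 1.33 (S100P, 1% O2) to 5.49. Of 301 alternative values of the members' differences, 294 stayed inside the counting interval, or within log2 0.5 for oxygen by time, which has no interval. Time intervals at 20% O2 reach log2 11.4 for PI3 and 10.6 for LCN2, so a larger value could hardly leave them. The others were C3 with library totals (oxygen at day 10, 0.96, and against 20% O2 day 10, 0.89). With the deposited table they were SLPI at 20% O2 (2.96), PI3 (2.79 and 2.40) and LCN2 (2.16 and 3.27). For oxygen at day 1, S100P lost the 2-fold rule with a prior count of 5 (−0.83) and with the deposited table (−0.56), and SLPI passed it with a prior count of 0.5 (1.10). LCN2 lost it for oxygen by time with a prior count of 0.5 (0.74).

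Counts of all genes past the size rule moved. Time at 20% O2 gave 609 genes, and 388 with a prior count of 5, 210 with the deposited table, 938 with no filter, 236 at 5 CPM and 202 at a rule of log2 1.5. Oxygen at day 1 gave 412, and 651 with a prior count of 0.5, 213 with 5, 93 with the deposited table, 698 with no filter, 131 at 5 CPM and 131 at log2 1.5. Reoxygenated against 20% O2 day 10 gave 671, then 402, 188, 1207, 222 and 215 for a prior count of 5, the deposited table, no filter, 5 CPM and log2 1.5. At 5 CPM and at log2 1.5, time at 1% O2 (2898) gave 1910 and 1290, reoxygenated against 1% O2 day 10 (2335) gave 1482 and 916, and oxygen by time (2607) gave 1632 and 1101. Oxygen at day 10 (2991) gave 1256 at log2 1.5. With library totals the share of higher genes among those past the rule went from 68.4% to 80.3% for time at 1% O2, 67.1% to 77.7% for oxygen at day 10 and 66.9% to 78.1% for oxygen by time, and the median of all genes was 0.13, 0.14 and 0.10.

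The median of the acute-phase list for time at 1% O2 reversed from 2.51 over 5 genes to −0.062 at 5 CPM. There only SERPINA1 (1.72) and PTX3 (−1.85) were left. The day term (216) gave 0 calls with only that term (698 at an unadjusted p under 0.05, edgeR), 47 at 5 CPM, 38 with totals, and 70 with DESeq2. The oxygen term (130) gave 0 (462 unadjusted), 29, 27 and 49 in turn. With 1 library left out, both terms leave no residual degree of freedom; a model of the tested term alone gave 7 to 5753 calls for day and 0 to 4225 for oxygen. Library sizes over all rows, chosen after seeing the data, gave 165 and 99. The cause was not tested. Genes with 1 to 3 counts at day 1 are limited by depth.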
